A study of Drosophila melanogaster with 3 samples.

Results

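The genes of the RNA polymerase II transcription machinery were examined for promoter binding by the Drosophila melanogaster protein CG9609. They were chosen by symbol among the protein-coding genes of the Ensembl annotation, as Polr2 with a letter from A to M, Taf with a number, TfII with letters, Tbp, MED with a number, and the 4 Mediator kinase module genes kto, skd, CycC and Cdk8. This gave 65 of 13968 genes, with 13 Polr2 genes of RNA polymerase II, 14 genes of TFIID, 9 genes of other general factors and 29 genes of Mediator. The 9 include TfIIS, an elongation factor gene. Chromatin immunoprecipitation followed by sequencing (ChIP-seq) had been performed with an antibody against green fluorescent protein (GFP) on whole embryos aged 0 to 24 h, males and females pooled. Their transgenic line stably expressed CG9609 with GFP at its C-terminal end. The labels give 1 group, CG9609-GFP, and number its 3 replicates, which they call biological. No untreated or other-genotype samples were analysed here, so every comparison is between genes or between replicates. Whole embryos of this age range mix all tissues and stages, so the cells in which a gene was bound are unknown, and the bound protein was the tagged one. What drives the tagged gene in this line is not given in the sources used here.

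RNA polymerase II transcribes the protein-coding genes. At a promoter it is recruited by general factors: TFIID, made of the TATA-binding protein Tbp and its associated factors (TAFs), recognises the core promoter, TFIIA steadies Tbp on the DNA, TFIIB joins Tbp to the polymerase, and TFIIF, TFIIE and TFIIH help to position the polymerase and open the DNA. Mediator is a large complex of head, middle and tail modules that links sequence-specific transcription factors to the polymerase, and a kinase module can detach from it. Most of these proteins work in nearly every cell type.

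A gene was called bound when the summit of a peak of the reproducible set, which the authors kept by comparing replicates, lay within 500 bp of a transcription start site (TSS) of one of its protein-coding transcripts. The lists of replicates 1, 2 and 3 held 30000, 29898 and 30000 regions, weak background regions included. The regions of highest signal in each replicate, as many as there are peaks in the reproducible set, are called its strongest regions. The lists hold no read counts, so read depth is unknown. The signal values are the authors' own and their scale is not given in the sources used here, so regions are described by rank within their own list, with rank 1 the highest signal. Reproducible peaks were chosen on the same 3 replicates, so a reproducible peak's place in the replicate lists is a description of the replicates and not separate support. Replicate spread below is over embryo collections that the labels call biological, and no p-value was computed.

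The DNA under the summits is shown for 6 bound genes, 3 of them from Mediator and 1 from each of the other complexes, because the word counts given further on rest on such windows. Each line is read 5′ to 3′ on the strand of the gene named, in build dm6, and is limited to sequence outside annotated exons. Capitals mark TTAAAA or its reverse complement TTTTAA in the first 4 lines, none in the fifth, and TATCGATA, the DNA replication-related element (DRE) of many housekeeping promoters, in the last. The summit is base 51 of the lines for Polr2B (chr3R:14125686-14125786, plus strand), Taf4 (chr3L:16113645-16113745, plus strand), MED27 (chr3R:5654953-5655053, plus strand), MED30 (chr3L:654232-654332, minus strand) and MED17 (chr3R:18189016-18189071, plus strand), and base 39 of the line for TfIIA-L (chr3R:27253183-27253271, plus strand).
Polr2B: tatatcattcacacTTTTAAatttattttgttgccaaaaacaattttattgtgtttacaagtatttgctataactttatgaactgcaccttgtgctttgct
Taf4: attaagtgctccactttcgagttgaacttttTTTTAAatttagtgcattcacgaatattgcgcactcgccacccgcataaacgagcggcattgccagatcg
MED27: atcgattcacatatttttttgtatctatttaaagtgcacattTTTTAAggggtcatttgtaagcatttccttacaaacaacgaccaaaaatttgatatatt
TfIIA-L: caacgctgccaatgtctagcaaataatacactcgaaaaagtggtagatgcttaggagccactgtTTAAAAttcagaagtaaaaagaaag
MED30: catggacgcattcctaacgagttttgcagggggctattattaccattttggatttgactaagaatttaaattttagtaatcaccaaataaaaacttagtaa
MED17: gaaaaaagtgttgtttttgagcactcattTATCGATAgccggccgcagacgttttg

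CG9609-GFP peaks lay at the promoters of 22 of the 65 genes (33.8%), against 2623 of all 13968 protein-coding genes (18.8%). RNA polymerase II had 5 of 13 genes bound (38.5%), TFIID 4 of 14 (28.6%), the other general factors 3 of 9 (33.3%) and Mediator 10 of 29 (34.5%). Among the strongest regions alone, 21, 22 and 19 of the 65 genes had a summit in the window in replicates 1, 2 and 3, which is 31.8% ± 2.35 (SD, n = 3). The same rates over all genes were 16.8%, 18.7% and 18.5%. Such a summit was found in all 3 replicates for 17 of the 65 genes (26.2%), against 12.7% of all genes. By complex the replicate counts were 5, 5 and 5 for RNA polymerase II and 4, 3 and 2 for TFIID. For the other general factors they were 4, 3 and 3, with the elongation factor gene TfIIS in the 4, and for Mediator 8, 11 and 9. RNA polymerase II therefore gave the same count each time, whereas TFIID ranged from 4 of 14 genes in replicate 1 to 2 of 14 in replicate 3, below the 18.5% of all genes there. No difference between the complexes was tested.

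**Figure D1:**
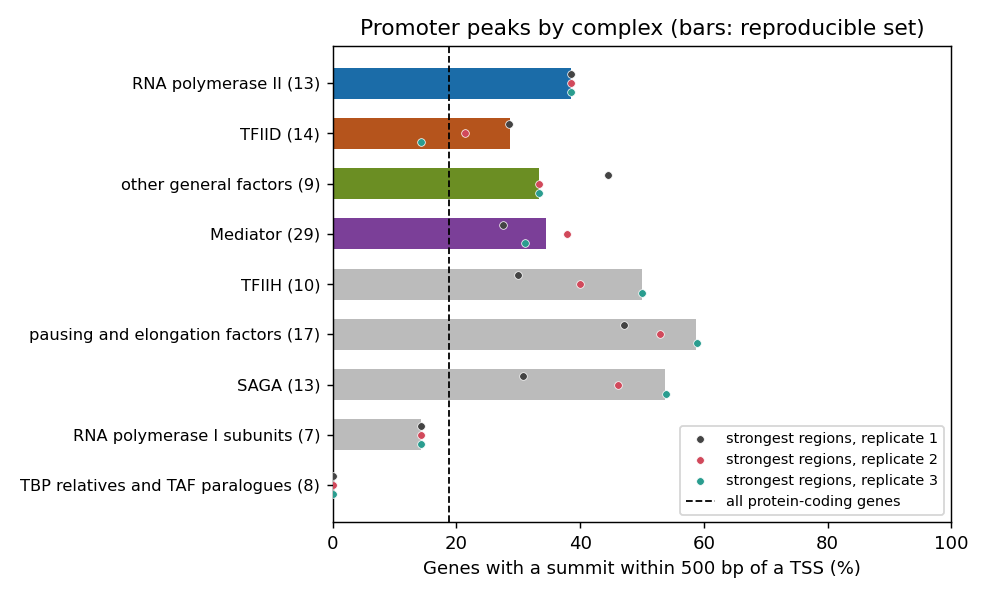
Share of genes with a peak summit within 500 bp of a TSS, in percent, for the complexes examined (coloured bars) and for related gene lists (grey bars), with the number of genes in brackets. Bars are the reproducible set, dots the strongest regions of each of the 3 replicates, and the dashed line is the 18.8% of all protein-coding genes, which the bars of all 4 coloured complexes exceed.

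Regions of the full replicate lists lay at nearly all of these promoters. Of the 65 genes, 61 (93.8%) had a region of at least 1 replicate list in the window, against 68.6% of all genes. When only genes with such a region were counted, 22 of 61 (36.1%) were bound, against 27.4% of all such genes. Down to rank 1000, the replicate lists each held a region for 10 of the 65 genes (15.4%), against 6.38%, 6.03% and 5.97% of all genes in replicates 1, 2 and 3. Down to rank 10000 they held a region for 32, 33 and 39 of them (49.2%, 50.8% and 60.0%), against 27.0%, 31.5% and 34.6% of all genes.

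**Figure D2:**
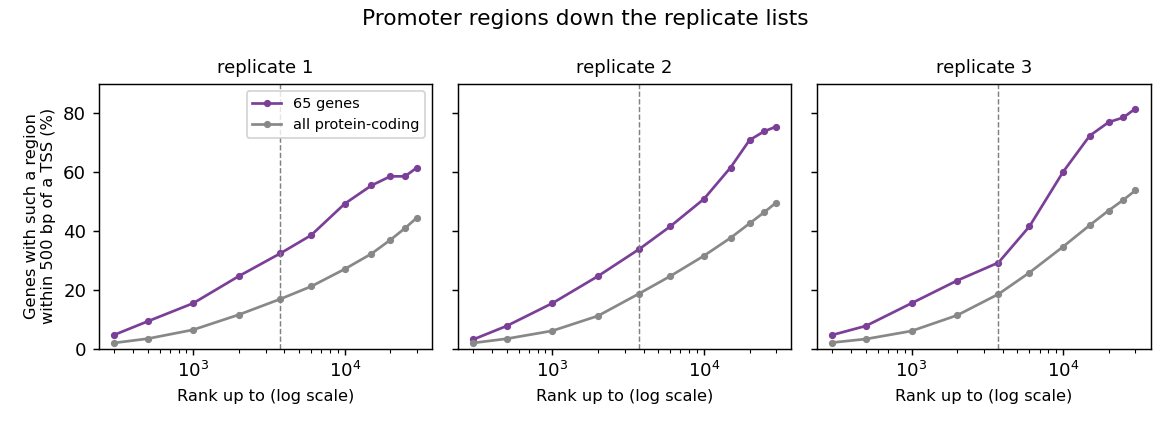
Percent of genes with a region of the given rank or better within 500 bp of a TSS, against rank on a log scale, in each replicate list. The purple line (65 genes) lies above the grey line (all protein-coding genes) at every plotted rank, for example 15.4% against about 6% at rank 1000, and the dashed line marks the end of the strongest regions.

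The peaks at RNA polymerase II genes were led by Polr2H and Polr2F, which encode subunits shared with RNA polymerases I and III. The peak at Polr2H (FBgn0037121), on chr3L:21728670-21728944, had rank 127 of the reproducible set and ranks 109, 135 and 148 in replicates 1, 2 and 3. Polr2F (FBgn0003275) had rank 288, on chr3R:5371621-5371854, and ranks 144, 379 and 455 in the replicates. The other 3 shared subunit genes, Polr2E, Polr2K and Polr2L, were not bound. Polr2B (FBgn0262955), the second-largest subunit, which forms the catalytic cleft with Polr2A, had rank 776 on chr3R:14125541-14125930 and replicate ranks of 916, 626 and 941. Polr2C and Polr2J encode the pair of subunits that dimerise early in assembly of the enzyme, and both were bound. Polr2J (FBgn0032634) lay at rank 1417 on chr2L:17410554-17410656, with replicate ranks of 1142, 1330 and 2272. Polr2C (FBgn0026373) lay at rank 1837 on chr2L:13832915-13833304, with replicate ranks of 2119, 1970 and 2188. Each of the 5 peaks was among the strongest regions of every replicate.

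Both genes of the main TFIIA, TfIIA-S and TfIIA-L, were bound. TfIIA-S (FBgn0013347), the small subunit, had rank 508 on chr3R:23891024-23891203 and ranks 333, 706 and 604 in replicates 1, 2 and 3. TfIIA-L (FBgn0011289), the precursor of the large subunits, had rank 1762 on chr3R:27253026-27253415 and was more variable, with ranks of 3074, 2204 and 1083. TfIIB (FBgn0004915), the factor that joins Tbp to the polymerase, had rank 1384 on chr2L:10430793-10431182 and ranks of 997, 1567 and 1899. Neither subunit gene of TFIIE or TFIIF was bound, nor were the elongation factor gene TfIIS and the TFIIA paralogue TfIIA-S-2.

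TFIID peaks lay low in the list, with 1 exception, and 2 of the 4 were among the strongest regions of every replicate. Taf4 (FBgn0010280), a scaffold TAF with a histone-fold domain, was that exception at rank 555 on chr3L:16113500-16113889, with ranks of 933, 734 and 425. Taf7 (FBgn0024909), a partner of Taf1, had rank 2336 on chr3R:7907335-7907724 and replicate ranks of 3564, 1797 and 3004. For Taf2 (FBgn0011836), a TAF that contacts the initiator element, rank 2638 on chr3L:9888559-9888948 came with ranks of 1665, 2893 and 3914, so replicate 3 left it outside the strongest regions. Taf13 (FBgn0032847), the histone-fold partner of Taf11, lay almost at the end of the reproducible set at rank 3744, on chr2L:20093806-20094195, and its replicate ranks of 6243, 4878 and 5074 were outside the strongest regions of all 3. The genes of Tbp itself and of Taf1, the largest TAF, were not bound. The median rank was 2487 over the 4 TFIID genes, 776 over the 5 of RNA polymerase II, 1384 over the 3 other general factors and 956 over the 10 of Mediator, and the ranges of all 4 overlapped.

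Mediator had bound genes in its head, middle, tail and kinase modules. Its strongest peaks belonged to MED30 and MED27. MED30 (FBgn0035149) had rank 149 on chr3L:654139-654396 and ranks of 171, 171 and 134 in replicates 1, 2 and 3. MED27 (FBgn0037359) had rank 331 on chr3R:5654900-5655060 and ranks of 429, 368 and 282, so both held their place in each replicate. Of the 9 middle module genes, 4 were bound. MED4 (FBgn0035754) was the strongest of these at rank 474, on chr3L:7250617-7250736, with ranks of 438, 543 and 512. MED7 (FBgn0051390), on chr3R:10760862-10761251, had rank 1971 and ranks of 3914, 2046 and 1380, with replicate 1 outside the strongest regions. MED7 forms with MED21 the long hinge of the middle module and also binds MED31, and the peaks of those 2 partners were among the weakest. MED21 (FBgn0040020), on chr3L:25115837-25116226, had rank 3400, no region in replicate 1 and ranks of 3046 and 5383 in replicates 2 and 3. MED31 (FBgn0037262), on chr3R:4641651-4642040, had rank 3703 and ranks of 1904, 2793 and 9071.

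In the Mediator head, which contacts the polymerase, MED6 and MED17 were bound and the other 5 genes were not. MED6 (FBgn0024330) had rank 827 on chr3R:9767775-9767885, with ranks of 574, 746 and 1373. MED17 (FBgn0038578), a central head subunit, had rank 1634 on chr3R:18188968-18189071, with ranks of 1342, 1909 and 1812. MED16 (FBgn0034707) was the 1 bound gene of 5 in the tail, at rank 1085 on chr2R:22182865-22183254, with ranks of 1119, 1715 and 985. Of the kinase module, skd (FBgn0003415), the fly MED13, which holds the module on Mediator, had rank 671 on chr3L:21027810-21027941 and ranks of 1216, 450 and 787. Its 3 partners kto (the fly MED12), CycC and Cdk8 were not bound, nor was MED14, the scaffold that joins the modules.

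All 3 replicates had 17 of the 22 peaks (77.3%) among their strongest regions, against 62.6% of the peaks of all bound genes, when summits within 100 bp were matched. A further 3 were among those of 2 replicates (Taf2, MED7 and MED31), 1 of 1 replicate (MED21) and 1 of none (Taf13). In the reproducible set the 22 genes had a median rank of 1234.5 and quartiles of 519.8 and 1937.5, against a median of 1609 over all bound genes. The median ranks of the genes found among the strongest regions were 1119, 1448.5 and 985 in replicates 1, 2 and 3, against 1358.5, 1672 and 1583 for all genes found there. Ranks 1 to 936 held 10 of the 22 peaks (45.5%) and 31.0% of those of all bound genes. Of the 22 peaks, 10 (45.5%) were narrower than the usual 390 bp, against 19.8% of promoter peaks. The narrow ones were Polr2H, Polr2F, TfIIA-S, MED30, MED27, MED4, skd and MED6, all within ranks 1 to 936, and Polr2J and MED17. Width thus went with rank among them, and it was not compared at equal rank.

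**Figure D3:**
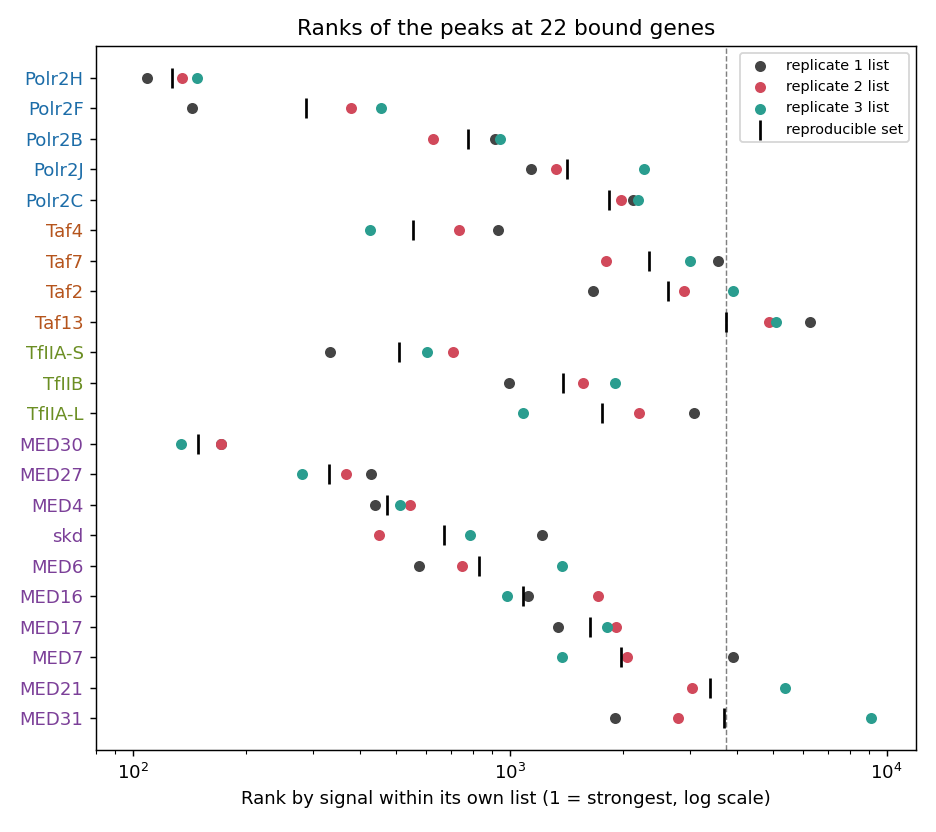
Rank by signal of the peak at each of the 22 bound genes, on a log scale, in the reproducible set (black bars) and in the 3 replicate lists (dots), with gene names coloured by complex (blue RNA polymerase II, orange TFIID, green other general factors, purple Mediator). The dashed line is the end of the strongest regions. The 5 genes with a dot to the right of it or without a dot are Taf2, Taf13, MED7, MED21 and MED31, and MED21 has no dot for replicate 1.

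All 22 summits lay upstream of the nearest TSS of the gene examined, as did the summits of 88.2% of all bound genes. Where a gene had several TSSs, the distance was taken to the one nearest the summit. For Taf4, Taf7, TfIIA-L and MED6, which have several, the summit lay inside the gene, downstream of its 5′ end. Their median distance was 112.5 bp, with quartiles of 68 and 186 bp, against 105 bp for all bound genes, and the median was 93.3 bp ± 5.51 (SD, n = 3) over the strongest regions of the replicates. MED6, at 3 bp from 1 of its 5 TSSs, and MED17 at 6 bp were nearest to their own TSS. TfIIB at 350 bp and skd at 445 bp were farthest. Within the first 200 bp upstream lay 18 of the 22 (81.8%), against 61.3% of all bound genes. By annotation 15 summits were intergenic and 3 lay in introns of the gene itself (Taf4, Taf7 and TfIIA-L). The remaining 4 were in exons, of CG11247 for Polr2H, nesd for Taf13, the antisense RNA asRNA:CR43470 for MED4, and MED6 itself.

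Most of the bound promoters were divergent. An opposite-strand protein-coding gene had a TSS within 500 bp of the same summit for 17 of the 22 genes (77.3%), against 57.0% of all bound genes. Polr2F, Taf4, TfIIA-S, MED4 and MED21 had no such partner, and non-coding genes were not counted. The count among the strongest regions was 16, 16 and 15 in replicates 1, 2 and 3. In 10 of the 17 pairs the summit was nearer to the other gene. For Polr2C it lay 227 bp from its own TSS and 5 bp from those of PolG2 and GatC, for Taf2 71 bp against 8 bp for the calpain gene CalpB, and for MED31 117 bp against 8 bp for CG9775. For Polr2H it lay 137 bp away and 11 bp from CG11247, for Taf13 152 bp away and 29 bp from nesd, and in both it had passed the partner's TSS into its transcript. The summit of skd lay 36 bp from Pdss2, that of TfIIA-L 39 bp from pll, the gene of the Toll pathway kinase Pelle, that of Polr2J 43 bp from CG15141, that of TfIIB 70 bp from Bug22, and that of MED30 81 bp from Rev1, a translesion DNA polymerase gene. The gene examined was the nearer of the pair for MED6 (Naa80 at 16 bp), MED27 (elm at 142 bp), Taf7 (EMC1 at 167 bp), MED16 (CG11170 at 181 bp), Polr2B (140up at 188 bp), MED7 (the condensin gene Cap-H2 at 253 bp) and MED17 (CG12321 at 359 bp). MED31 also shares its TSS position with slx1 on the same strand. With every protein-coding gene counted, the member's own TSS was the nearest in 12 of 22 cases (54.5%), against 71.0% of all bound genes. If a peak counted for its nearest TSS alone, 12 of 65 genes (18.5%) were bound, against 13.7% of all genes, and 5 of 36 for RNA polymerase II and the general factors together.

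**Figure D4:**
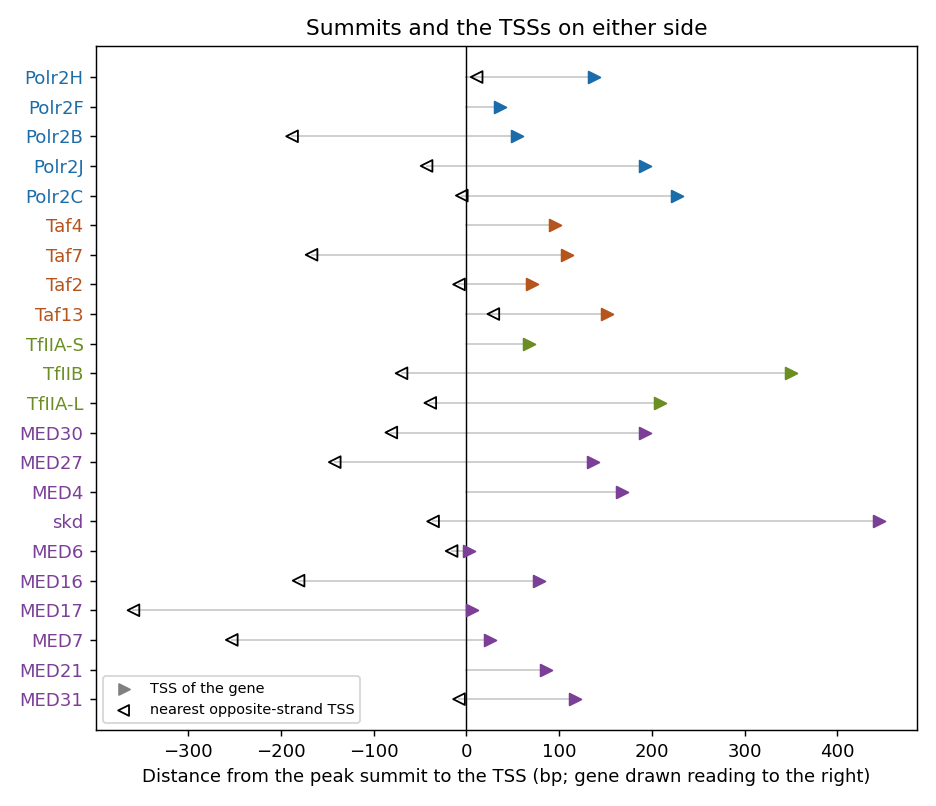
Distance in bp from each peak summit (vertical line at 0) to the nearest TSS of the bound gene (filled triangle, coloured by complex) and to the nearest opposite-strand protein-coding TSS (open triangle), with each gene drawn reading to the right. All 22 filled triangles are to the right of the summit, from 3 bp for MED6 to 445 bp for skd, and 17 genes have an open triangle, 15 of them to the left.

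Head-to-head promoters were common among the 65 genes whether or not they were bound. An opposite-strand protein-coding TSS lay within 500 bp upstream of a TSS for 39 of the 65 (60.0%), against 27.3% of all genes. Genes with such a neighbour were bound in 17 of 39 cases (43.6%), against 38.9% of all such genes, and genes without one in 5 of 26 cases (19.2%), against 11.2%. For RNA polymerase II and the general factors the counts were 9 of 20 (45.0%) and 3 of 16 (18.8%), and for Mediator 8 of 19 (42.1%) and 2 of 10 (20.0%). Over both kinds of promoter together the shares were 33.8% of the 65 genes and 18.8% of all genes. The part of promoter arrangement in the binding of these genes was not tested.

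Of the 43 genes that were not bound, 39 had a region of some replicate list in the window, in 1 list for 14 genes, in 2 for 12 and in 3 for 13. Of all 13968 genes, 11345 were not bound and 9576 had a region of some list, 2623 of which were bound. The split by number of lists was not computed over all unbound genes. Among the 43, only Taf11, TfIIS, MED1 and MED23 reached the strongest regions, each in 1 replicate. Taf11, the partner of Taf13, had ranks of 3690, 3876 and 12932. MED23, a tail subunit, had ranks of 5966, 5064 and 3536, and MED1, a middle subunit that binds nuclear receptors, had 6729, 3255 and 5401. TfIIS, which rescues stalled polymerase, had ranks of 3533, 17793 and 4657. The catalytic subunit gene Polr2A had a weak region in each list, at ranks 13319, 11642 and 5544, as had Taf1 at 8004, 5743 and 8809 and MED8 at 5891, 4950 and 7011. At Tbp there was a region at rank 6522 in replicate 1 and at 28714 in replicate 3. Of the polymerase stalk pair, Polr2D had 1 region at rank 19052 in replicate 2 and Polr2G 1 at rank 27113 in replicate 1. No list had a region at Polr2L, TfIIA-S-2, MED22 or kto. The 19, 27 and 31 unbound genes with a region in replicates 1, 2 and 3 had median best ranks of 8004, 13424 and 9339, against 13853, 11998 and 10957.5 for all unbound genes with a region, so the lower median was on their side in 2 of 3 replicates. From the TSS of these 43 genes to the nearest reproducible summit the median was 6496 bp, a distance not computed for all unbound genes. The closest was MED15, a tail subunit, at 538 bp, just outside the window, and the farthest Polr2L at 51500 bp.

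The bound genes lay on 4 chromosome arms. None of the 6 genes on X (Polr2A, Taf8, Taf9, TfIIA-S-2, MED18 and MED22) was bound, where 18.1% of all genes were, and neither of the 2 on chromosome 4 (Taf3 and MED26), where 7.5% were. On 2R 1 of 8 was bound, on 2L 4 of 9, on 3L 7 of 18 and on 3R 10 of 22, against 17.9%, 17.8%, 18.8% and 21.0% of all genes.

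The word TTAAAA, read on either strand, was found in the 101 bp around the summit in 12 of the 22 windows (54.5%), in 529 of 1998 other promoter peaks (26.5%) and in 5 of 44 windows centred 300 bp to either side (11.4%). It had been picked from the 936 strongest peaks that were not at these genes, as the 6-base word whose share differed most from that in windows 300 bp away. Of those peaks 30.2% held it, against 14.9% of the windows away. It was chosen after seeing the data. The 12 genes were Polr2B, Polr2H, Taf2, Taf4, Taf7, TfIIA-L, TfIIB, MED7, MED16, MED27, MED31 and skd, so each complex had some and MED31 had 2 copies. It was absent from the windows of Polr2F, TfIIA-S, MED30 and MED4, which were among the strongest peaks. In windows of the same length centred 76 bp upstream of the canonical TSS, whether or not a peak was there, 13 of the 22 bound genes (59.1%), 12 of the 43 unbound genes (27.9%) and 23.9% of 13967 promoters held it. The word is made of A and T alone, and the windows differed in that content: A and T made up 63.1% ± 8.83 (SD, n = 22) of the summit windows, 60.9% ± 9.38 (SD, n = 1998) of other promoter summit windows and 53.7% ± 11.0 (SD, n = 44) of the windows 300 bp away. In the 936 strongest peaks it was 64.2% ± 8.43 (SD, n = 936). In the canonical promoter windows it was 67.8% ± 8.88 (SD, n = 22) for bound genes, 65.1% ± 7.57 (SD, n = 43) for unbound genes and 60.5% ± 10.5 (SD, n = 13967) for all promoters. The part of base composition in the word counts was not tested.

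Other words were searched on both strands. The DRE, TATCGATA, was found under 1 of 22 summits, that of MED17 shown above, and in 5.31% of other promoter peaks. In the canonical promoter windows it was held by 0 of the 22 bound genes, by 7 of the 43 unbound genes (16.3%) and by 4.3% of all promoters. Those windows, 101 bp centred 76 bp upstream, stop short of the TSS. The DRE of MED17 was not wholly inside its window, so the 0 does not mean that bound promoters lack the DRE. CAACACTG, a word learned from the promoter peaks of other genes, was at Polr2J and MED6, against 4.95% of other promoter peaks and 1.2% of promoters. CATCNCTA was at skd and MED7 (4.75% of other promoter peaks) and CAGCNCTA at TfIIA-S and MED17 (2.1%). The TATA box word TATAAA was in 3 windows, those of Polr2H, Taf13 and MED21 (13.6%, against 13.8% of other promoter peaks). It was in 7 of the 44 windows 300 bp to either side (15.9%). In the canonical promoter windows it was held by 6 of the 22 bound genes (27.3%), 20.9% of the unbound genes and 18.6% of all promoters. There too it was counted at any position and on either strand, so these shares are not counts of placed TATA boxes. No window held GGTCACAC, the E-box CACGTG, the GAGA word GAGAGAG, the Zelda word CAGGTAG or the B box GGTTCGAA, which were in 2.9%, 1.3%, 1.5%, 0.35% and 0.4% of other promoter peaks. These words describe the windows only.

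Genes that work beside these complexes had shares both above and below the 18.8% of all protein-coding genes. Of the 10 TFIIH genes, whose complex opens the promoter, 5 were bound, and the peak of Ssl1 was the strongest of all genes named here at rank 8, centred 216 bp upstream. The genes mrn, Tfb5, Cdk7 and Tfb1 had ranks of 1663, 1877, 2614 and 2972. Pausing and elongation factors had 10 of 17 genes bound (58.8%), led by the NELF genes Nelf-E at rank 169 and Nelf-A at rank 737, with TH1 and NELF-B at 2110 and 2865, so that each of those 4 pausing genes had a peak. The SAGA coactivator, which shares TAFs with TFIID, had 7 of 13 (53.8%), led by the acetyltransferase gene Gcn5 at rank 748 and Ada3 at rank 973. The leading ranks are not typical of these 3 lists. Median ranks of their bound genes were 1877 for TFIIH, 2508 for pausing and elongation factors and 2138 for SAGA, against 1609 over all bound genes. Of the RNA polymerase I subunit genes, taken as Polr1 with a letter, 1 of 7 was bound (14.3%, Polr1D, rank 1640), near the share of all genes. Subunits shared with other polymerases were not set apart in that list. None of 8 TBP relatives and TAF paralogues was bound, and lists of 7 and 8 genes are small for such a comparison. Over the strongest regions the counts in replicates 1, 2 and 3 were 3, 4 and 5 for TFIIH, 8, 9 and 10 for pausing and elongation factors and 4, 6 and 7 for SAGA, so that the spread between replicates was larger than for RNA polymerase II. These differences between lists were not tested.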

How the data were processed

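ChIP-seq peak lists of 3 CG9609-GFP replicates were analysed in build dm6. The signal value of each region was deposited by the authors, and neither its scale nor the peak caller, aligner or control is given in the sources used here. Regions and summits are coordinates that the authors deposited. Per the labels, sonicated fragments measured 200 to 800 bp. The dm3 lists and the other columns were not used. Summits (start plus offset) were assigned to every protein-coding TSS within 500 bp in Ensembl release 115 (BDGP 6.54), and matched between lists within 100 bp. Where a gene had several summits the highest signal was used. The members and lists were chosen with earlier results of these data known. Sequences came from the same assembly as dm6, and the chromosome of each gene from the annotation. Words were counted on both strands in 101 bp windows. Every bound member is named, and 1 related gene list is not reported here. Assignment, matching and word counts were checked on simulated data. Python 3.11.15, numpy 2.4.6, pandas 2.3.3 and matplotlib 3.10.9 were used. Alternatives were other windows, canonical or nearest TSSs, whole regions, stronger peaks, other matching distances and other word windows. Further ones kept only reproducible peaks matched among the strongest regions of all 3 replicates (the consensus) or of each pair of replicates. The word of 6 bases and the windows placed by canonical TSS were added after seeing the data.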

Additional observations from a re-analysis of the deposited data

How the results depend on the processing

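Over windows of 250 and 1000 bp, canonical TSSs, whole regions, the 50% strongest peaks, the replicate consensus and each replicate left out, the count of bound genes stayed between 16 (24.6%, against 10.7% of all genes) in the 50% strongest peaks and 23 (35.4%, against 21.6%) with 1000 bp, that of Mediator between 7 and 11 and that of RNA polymerase II and general factors between 9 and 12. With the nearest TSS alone the counts were 12 (18.5%, against 13.7% of all genes), 7 and 5, with a median rank of 801.5 and a median distance of 72.5 bp, and a count of shared peaks has no meaning there. The nearest TSS alone lost 10 genes: Polr2H and MED30, with the strongest peaks, and Polr2J, Polr2C, TfIIB, TfIIA-L, skd, Taf2, Taf13 and MED31. The consensus lost Taf13, Taf2, MED21, MED31 and MED7, 250 bp lost TfIIB and skd, and canonical TSSs lost MED6. MED15 was gained with 1000 bp and with whole regions. The median rank was 723.5 in the 50% strongest peaks and 776 in the consensus, since both sets leave out weak peaks, and 776 to 827 for the pairs of replicates. The median distance was 101.5 bp with 250 bp, 136.5 bp in the 50% strongest peaks, 136 bp in the consensus and 117 to 136 bp for the pairs of replicates. TTAAAA was in 6 windows (27.3%, against 14.0% of other promoter peaks) at 25 bp and in 15 (68.2%, against 46.2%) at 100 bp on each side of the summit. A form of the list with TfIII symbols was not run, as there are 0 such genes. No paired analysis was possible because there was 1 group. With read depth unknown, an unbound gene is one without a reproducible summit in the window, not one shown to lack CG9609.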
